A study of Mus musculus with 24 samples.

Results

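The genes described here are cytokines, chemokines, adhesion molecules and NF-kB feedback genes of mouse inguinal white adipose tissue. They are the rows of the deposited expression table whose symbol stands on a list of 40 such genes, and 37 of the 40 are among its 16233 genes. By role they comprise 10 of 12 listed interleukins and other cytokines, 9 of 9 CC chemokines, 8 of 9 CXC and CX3C chemokines, 4 of 4 adhesion molecules, and 6 of 6 NF-kB feedback inhibitors and other targets. The other 3 on the list, Il6, Il1a and Cxcl5, are not among the genes of the table used and were not analysed here.

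Inguinal white adipose tissue is a subcutaneous fat depot. All 24 RNA sequencing libraries came from male C57BL6 mice, 10 to 11 weeks old, in 4 groups of 6. RUN mice had 1 h of exercise and SED mice a sham hour on an artificial treadmill, either at ZT3 (early rest phase) or at ZT15 (early active phase). ZT is time since lights came on, in hours. The hour between the bout and tissue collection is not given in the labels of these libraries. No genotype or drug separates the groups, and all mice, sham controls included, were handled and killed under isoflurane. A library is named by time, treatment and a replicate number that pairs nothing. Nothing in the labels states outright that every library is its own mouse, and p-values therefore describe spread among libraries, which may in part be technical.

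Cytokines and chemokines are secreted proteins by which stromal, immune and fat cells signal to each other. Many of their genes are switched on by NF-kB, a family of transcription factors held in the cytoplasm by inhibitor proteins until a receptor for TNF, IL-1 or a microbial product is engaged. NF-kB also induces its own inhibitors, among them Nfkbia and Tnfaip3, and the adhesion molecules by which endothelium captures leukocytes. In white fat, macrophages and fibroblasts are the best known sources of chemokines, and the depot studied here contains a lymph node.

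Values are normalised signal, reads multiplied by 1 scaling factor per library. Depth ranged from 18.5 to 34.7 M (mega) reads per library. The factor did not follow depth alone, as it was 0.0304 in ZT3_RUN_4 (27.5 M reads) and 0.0439 in ZT15_RUN_6 (27.1 M reads). All 10 adipocyte markers were listed, with group medians of their summed signal from 25218 to 27215. Libraries differed in neighbouring tissue: the B cell gene Cd79a reached 99.2 in ZT3_RUN_4, 54.6 in ZT15_SED_5 and 14.1 in ZT15_SED_3, and no other library exceeded 1.33. The summed signal of 18 lymphocyte markers ranged from 18.0 to 31.7 in ZT3 SED, 15.5 to 2104 in ZT3 RUN, 17.9 to 1466 in ZT15 SED and 14.8 to 26.4 in ZT15 RUN. Summed adipocyte markers were lowest in 2 of the 3 Cd79a-rich libraries (12092 in ZT3_RUN_4 and 15346 in ZT15_SED_5). Values without these 3 libraries stand beside the results they touch most.

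Per kilobase of exon, the scale on which genes can be compared with each other, some chemokines were the most abundant members. Over 24 libraries the mean was 82.0 per kb for Ccl6, 55.8 for Ccl8, 37.0 for Ccl11 (eotaxin, which attracts eosinophils) and 33.4 for Ccl9. Nfkbia, the inhibitor that returns NF-kB to the cytoplasm, stood among them at 48.7 per kb. Cxcl12, which retains CXCR4-bearing cells, had 18.2 per kb. At the other end lay classical inflammatory cytokines: Il1b had 0.673 per kb, Tnf 0.602 and the anti-inflammatory Il10 0.319. Other chemokines stood there too, with Cxcl2 the lowest member at 0.242 per kb, Ccl4 at 0.470 and Ccl3 at 0.555. Cx3cl1 (0.780) and Cxcl1 (0.896) were also under 1 per kb. In all, 12 of 37 members were under 1 per kb and 9 at or above 10. The median library held 16 reads of Tnf and 9.5 of Il10, against 359.5 of Il34. Differences in the rarest members were therefore measured with few reads, and Ccl4 and Cxcl2 had 0 reads in ZT3_SED_3.

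**Figure D1:**
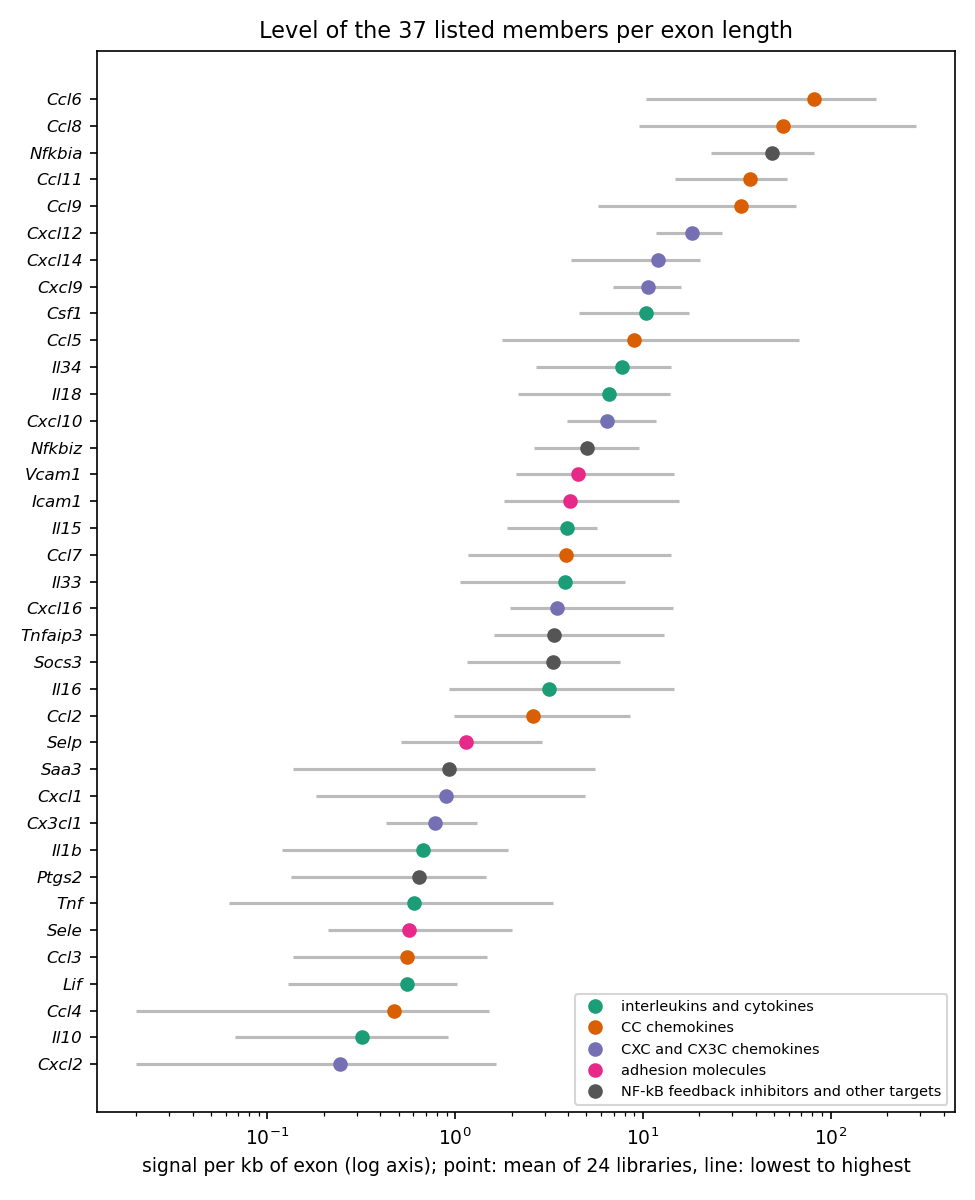
Mean signal per kb of exon of the 37 members over 24 libraries on a log axis, coloured by role, with lines from the lowest to the highest library (a lowest value of 0 is drawn at 0.02). Ccl6 leads at 82.0 per kb and Cxcl2 is last at 0.242.

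The promoters of some members, textbook NF-kB targets among them, carry the letters that this factor family is known to bind. The 250 bases before the RefSeq start site are shown for 3 of them, the neutrophil attractants Cxcl1 and Cxcl2 and the inhibitor Nfkbia, because their levels are described below. They are written 5′ to 3′ on the strand of the gene, with capitals at matches to GGG, any 3 bases, TTCC, or to GGG, any 2 bases, TTCCC, on either strand. Overlapping matches are joined into 1 run. Build GRCm38.p6 gives the windows as chr5:90890995-90891244 (plus strand, Cxcl1), chr5:90903649-90903898 (plus strand, Cxcl2) and chr12:55492648-55492897 (minus strand, Nfkbia).
Cxcl1: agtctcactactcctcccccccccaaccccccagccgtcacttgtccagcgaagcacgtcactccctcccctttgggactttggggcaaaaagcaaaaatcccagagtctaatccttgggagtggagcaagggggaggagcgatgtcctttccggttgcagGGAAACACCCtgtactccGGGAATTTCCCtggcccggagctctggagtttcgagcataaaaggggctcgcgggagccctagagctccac
Cxcl2: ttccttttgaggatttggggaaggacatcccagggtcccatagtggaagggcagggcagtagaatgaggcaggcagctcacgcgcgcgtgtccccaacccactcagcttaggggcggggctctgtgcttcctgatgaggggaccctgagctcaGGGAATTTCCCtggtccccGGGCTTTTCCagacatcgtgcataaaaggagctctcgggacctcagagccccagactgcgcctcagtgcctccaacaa
Nfkbia: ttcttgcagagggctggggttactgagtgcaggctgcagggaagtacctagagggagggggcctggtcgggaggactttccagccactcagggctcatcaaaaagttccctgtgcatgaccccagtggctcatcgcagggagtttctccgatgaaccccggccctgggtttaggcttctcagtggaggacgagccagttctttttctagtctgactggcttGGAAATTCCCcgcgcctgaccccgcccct

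The Cxcl1 and Cxcl2 windows each hold a pair of runs close to the start, beginning 89 and 71 bases before it in Cxcl1 and 97 and 78 in Cxcl2. The Nfkbia window holds 1 run, 29 bases before the start. Of the 26 members with an entry in the RefSeq promoter table, 9 had a match to either pattern in the 300 bases from 250 before to 50 after the start, or 34.6%, against 7.69% of the 27025 genes in the table. The members with a match were Il16, Csf1, Ccl9, Cxcl1, Cxcl2, Cxcl9, Cxcl10, Nfkbia and Tnfaip3. The AP-1 letters TGANTCA, which read as the same pattern on both strands, stood in 8 of the 26 (30.8%), against 8.97% of those genes. A match describes letters only and does not show that a factor was bound.

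Among the cytokines, Il34 was higher in the active phase than in the rest phase, whether or not the mice had run. IL-34 is a ligand of the receptor Csf1r and supports tissue macrophages and microglia. Its signal in ZT3 SED was 7.74 at the lowest, 10.3 at the median and 12.8 at the highest, and in ZT15 SED 12.5, 21.8 and 27.8. The 2 groups overlapped only through ZT15_SED_5, the lowest ZT15 library. Among sedentary mice Il34 (ENSMUSG00000031750) rose by 0.90 ± 0.18 on the log2 scale from ZT3 to ZT15, from 10.5 ± 1.88 to 20.8 ± 5.31 (SD, n = 6; limma adjusted p = 0.0126). Throughout, a change is a difference of mean log2(signal + 1) ± SE and a level is a mean signal ± SD. In bulk tissue fewer cells of a type and less RNA per cell cannot be told apart.

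Among exercised mice the lowest, median and highest Il34 values were 5.26, 9.82 and 11.9 at ZT3, and 14.9, 19.5 and 26.4 at ZT15. Every ZT15 RUN library lay above every ZT3 RUN library. Il34 rose by 1.02 ± 0.18 here, from 9.42 ± 2.22 to 20.0 ± 4.53 (limma adjusted p = 0.00283). These sedentary and exercised comparisons share no libraries. The difference between them was 0.12 ± 0.26 (limma adjusted p = 0.877, 95% interval −0.42 to 0.66), so the data do not separate the size of the time difference in RUN from that in SED.

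Exercise itself left no detected difference in Il34. Its change was −0.16 ± 0.18 at ZT3 (95% interval −0.54 to 0.22) and −0.04 ± 0.18 at ZT15 (−0.42 to 0.34). Il34 remained past the threshold in both time comparisons under every alternative processing and when any 1 of the 24 libraries was left out. Without the 3 Cd79a-rich libraries its time difference was 1.01 in sedentary mice (limma adjusted p = 0.00112) and 0.88 in exercised mice (0.00158). Csf1r, the receptor, chosen for mention after its values were seen, went from 250 ± 50.7 at ZT3 SED to 188 ± 52.5 at ZT15 SED and did not pass (−0.43 ± 0.25, limma adjusted p = 0.534). Csf1, the other ligand of this receptor, also did not pass in sedentary mice (63.6 ± 7.36 to 47.4 ± 7.76, −0.42 ± 0.20, limma adjusted p = 0.397).

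Il15 was the only member that passed in a comparison of exercise with sham, and it was lower after exercise at ZT15. IL-15 supports natural killer and memory T cells and is also made by muscle and fat. In ZT15 SED its lowest, median and highest values were 7.17, 11.5 and 11.8, and in ZT15 RUN 4.26, 6.29 and 7.61. All 6 exercised libraries lay below the sedentary mean, and the groups overlapped only through ZT15_SED_1. Il15 (ENSMUSG00000031712) fell by 0.65 ± 0.14 (log2), from 10.4 ± 1.95 to 6.26 ± 1.13 (limma adjusted p = 0.0331). This was 1 of 37 members, 2.7%, against 0.641% of all genes passing in this comparison in either direction and 0.16% lower.

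That Il15 call depended on the libraries and the processing. It missed the threshold without the 3 Cd79a-rich libraries (−0.57, limma adjusted p = 0.106), with a lymphocyte score as covariate (0.0686), with quantile normalization (0.0592), in a fit of only these groups (0.0746) and with neighbouring title numbers as a replicate block (0.0873). Without those 3 and ZT15_RUN_5, a set chosen after seeing the data, it was −0.48 (limma adjusted p = 0.230). Without 1 library it was called in 15 of 24 omissions, and the largest adjusted p, 0.114, came without ZT15_RUN_5; it was also lost without any of ZT15_SED_2 to ZT15_SED_6, ZT15_RUN_1, ZT15_RUN_4 and ZT15_RUN_6. All 18 lymphocyte markers had lower means after exercise at ZT15, with a median change of −1.57, and 0 of them passed; their part in the result was not tested beyond these fits. All 10 skeletal muscle markers had higher means after exercise at ZT15 (median change 0.97), and 0 passed. Their summed signal ranged from 25.4 to 40421 in ZT15 SED and from 167 to 44614 in ZT15 RUN, and with a muscle score as covariate the Il15 change was −0.64 (limma adjusted p = 0.0413).

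Exercise at ZT3 gave no such difference in Il15. ZT3 SED libraries ran from 7.11 to 11.5 with a median of 8.72, and ZT3 RUN libraries from 7.86 to 12.9 with a median of 9.14, so the groups overlapped widely (0.11 ± 0.14, 95% interval −0.19 to 0.40). The interaction, the exercise difference at ZT15 minus that at ZT3, was −0.76 ± 0.20 for Il15 with an unadjusted p of 0.00105 and did not pass over all genes (limma adjusted p = 0.583). DESeq2 on the recovered reads did call it (−0.84, adjusted p = 0.0208), and edgeR did not (0.173). Without the Cd79a-rich libraries the Il15 interaction was −0.60 with limma (adjusted p = 1.00).

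Between times, Il15 was lower at ZT15 than at ZT3 among exercised mice. Every ZT15 RUN library lay below every ZT3 RUN library, whose lowest value was 7.86. Il15 fell by 0.58 ± 0.14 (log2), from 9.88 ± 1.90 to 6.26 ± 1.13 (limma adjusted p = 0.0218). This comparison shares the ZT15 RUN libraries with that of exercise at ZT15, so the 2 are not separate evidence. The call was lost with a macrophage score as covariate (0.0803), in a fit of only these groups (0.0875) and without ZT3_RUN_1, ZT3_RUN_4, ZT15_RUN_4 or ZT15_RUN_5, with adjusted p up to 0.0666. Without ZT15_RUN_5 and the Cd79a-rich libraries, chosen after seeing the data, Il15 differed by −0.42 and did not pass (limma adjusted p = 0.107). Sedentary mice showed 9.09 ± 1.63 at ZT3 and 10.4 ± 1.95 at ZT15 (0.17 ± 0.14, limma adjusted p = 0.690). Il15ra, the receptor chain that presents IL-15, chosen after its values were seen, had 53.6 ± 3.83 in ZT15 SED and 75.0 ± 14.7 in ZT15 RUN and missed the threshold (0.46 ± 0.12, limma adjusted p = 0.0845).

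**Figure D2:**
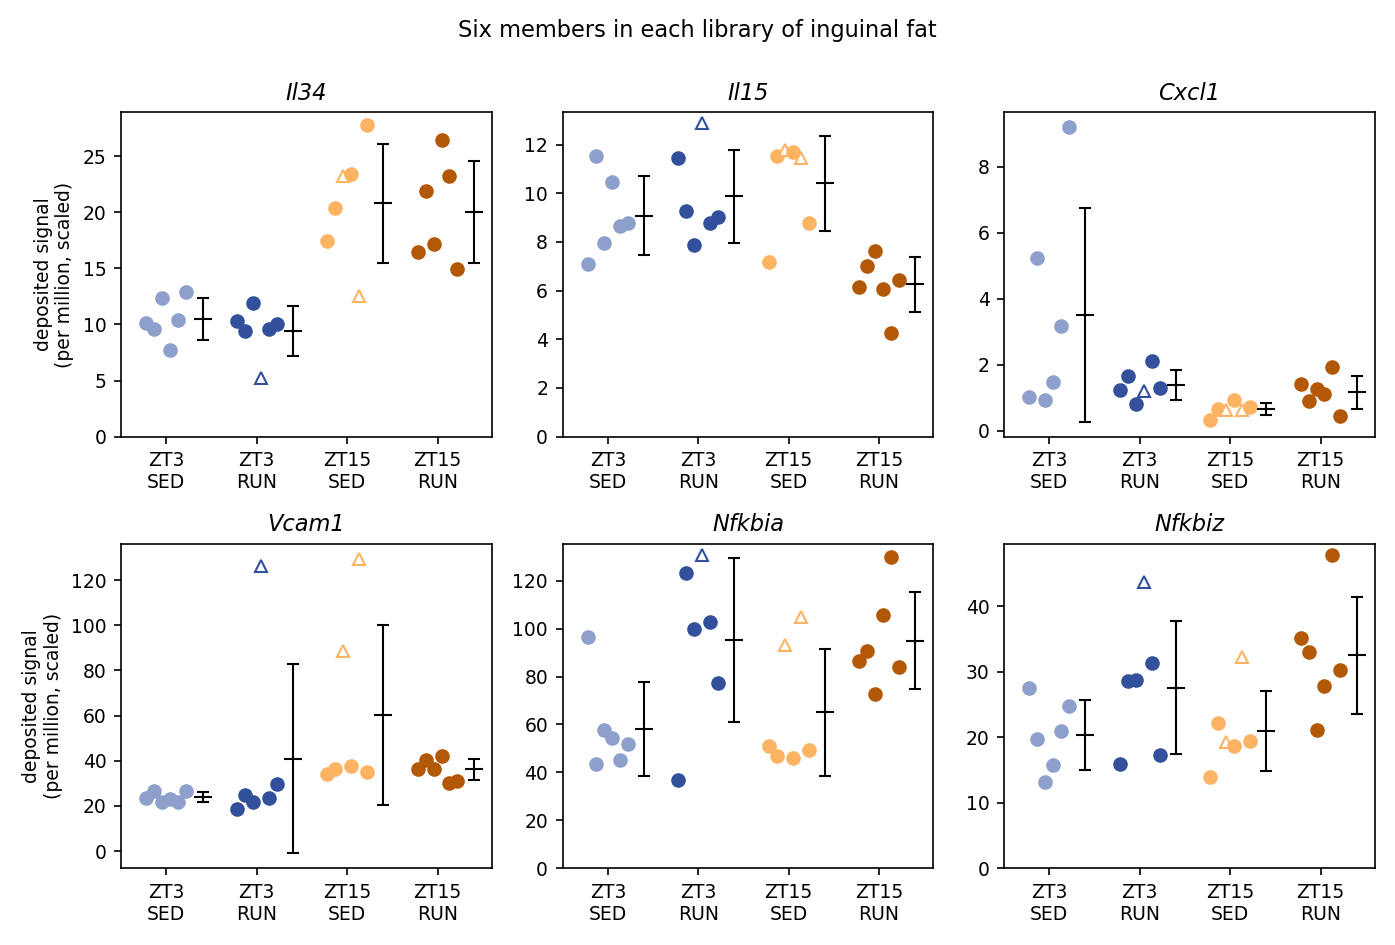
Signal of 6 members in each of 24 libraries by group, with the mean ± SD in black and open triangles for the 3 libraries with Cd79a above 5. Il34 is higher in both ZT15 groups, and all 6 ZT15 RUN values of Il15 lie at or below 7.61.

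The other cytokines did not pass in any of the 5 comparisons in the main limma fit, while DESeq2 called Il16 between exercised times. Of these cytokines Il16, a lymphocyte chemoattractant, had the smallest adjusted p after exercise at ZT15. It had 18.0, 23.9 and 81.2 (lowest, median, highest) in ZT15 SED and 7.33, 10.5 and 20.4 in ZT15 RUN. The groups overlapped, and the highest value, 81.2, was in the Cd79a-rich ZT15_SED_5. Il16 differed by −1.22 ± 0.42, from 33.9 ± 24.1 to 12.8 ± 5.72 (limma adjusted p = 0.185), and by −0.78 without the Cd79a-rich libraries (0.145). For exercise at ZT15 it passed only when ZT3_RUN_4, where Il16 was at 116, was left out (0.0369). Its interaction was −1.48 ± 0.59 (limma adjusted p = 0.583), and −0.58 without the Cd79a-rich libraries.

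Il18, which the inflammasome activates, ran from 6.98 to 14.3 in ZT3 RUN and from 2.22 to 10.7 in ZT15 RUN. The ranges overlapped, and Il18 did not pass (−0.73 ± 0.28, limma adjusted p = 0.138; 0.0379 without ZT15_RUN_2). With a macrophage score as covariate the Il18 change was −0.28 (limma adjusted p = 0.389). Lif, a cytokine of the IL-6 family, went from 3.21 ± 0.78 to 1.51 ± 0.683 between the sedentary groups (−0.77 ± 0.26, limma adjusted p = 0.164). Il33, an alarmin of stromal cells, ranged over groups from 8.71 ± 3.29 in ZT3 SED to 12.7 ± 6.61 in ZT3 RUN. The highest ZT3 RUN value, 23.3, was in the Cd79a-rich ZT3_RUN_4, and without it the ZT3 RUN mean was 10.6 ± 4.59. Il1b, Tnf and Il10 had group means from 0.172 to 1.61, and the smallest limma adjusted p among them was that of Il10 after exercise at ZT15 (0.390).

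The CC chemokines, which mainly attract monocytes, T cells and eosinophils, lay lower at ZT15 than at ZT3 as a list, although no single one passed. Between sedentary groups 8 of 9 had a change below 0, all but Ccl5, and the median was −0.67, beside 0.02 for all 16233 genes (7464 below 0). Between exercised groups 8 of 9 were below 0, all but Ccl11, and the median was −0.33, beside −0.01 for all genes (8300 below 0). Without the Cd79a-rich libraries the medians were −0.42 and −0.36, again with 8 of 9 below 0. The count called was 0 in both comparisons, where limma called 0.561% and 1.63% of all genes lower. Of the 10 interleukins and cytokines, 9 were also below 0 between exercised groups (median −0.24), and 5 between sedentary groups (median −0.06). The 9 CC chemokines are not independent of each other, as pairs among them varied together (below).

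Markers of macrophages and dendritic cells moved the same way as these chemokines. Of 17 such markers 14 were below 0 between sedentary groups (median −0.50) and 15 between exercised groups (median −0.48), with 1 called, Fcgr1, a high-affinity antibody receptor (−1.21 ± 0.30 in exercised mice, limma adjusted p = 0.0242). Their summed signal ranged from 1462 to 2684 in ZT3 SED and from 1047 to 2432 in ZT15 SED, and from 1679 to 3126 in ZT3 RUN and 851 to 3060 in ZT15 RUN. With a macrophage score as covariate the chemokine medians were −0.11 in sedentary mice (7 of 9 below 0) and −0.17 in exercised mice (6 of 9). Fibroblast and preadipocyte markers lay below 0 for 11 of 11 between sedentary groups (median −0.52) and for 9 of 11 between exercised groups (median −0.18). Of these Col1a1, a collagen gene, fell in sedentary mice, from 2084 ± 399 to 1145 ± 375 (−0.93 ± 0.23, limma adjusted p = 0.0485). Mast cell markers were below 0 for 6 of 7 in both (medians −0.62 and −0.56), and 0 passed. Beyond these values, the part of these cell types in the chemokine difference was not tested.

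Ccl7 and Ccl2, monocyte attractants that share the receptor CCR2, were the CC chemokines of smallest p between sedentary groups. Ccl7 had 2.12, 4.13 and 11.3 (lowest, median, highest) in ZT3 SED and 0.982, 1.90 and 2.83 in ZT15 SED. The groups overlapped, and the highest values, 11.3 for Ccl7 and 7.92 for Ccl2, were both in ZT3_SED_2. Ccl7 differed by −1.02 ± 0.32 (limma adjusted p = 0.133; 0.0241 with DESeq2) and Ccl2 by −0.73 ± 0.32 (0.351). Without the Cd79a-rich libraries the Ccl7 change was −0.91 (0.265). After exercise at ZT3 Ccl7 differed by −0.52 ± 0.32, from 5.35 ± 3.33 to 3.54 ± 2.79, and did not pass (limma adjusted p = 0.989).

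In ZT3 RUN the highest Ccl2 and Ccl7 values, 9.69 and 8.63, both stood in ZT3_RUN_5. Centred on group means over the 21 libraries without high Cd79a, Ccl2 and Ccl7 varied together, with Spearman rho 0.839 and Pearson r 0.910. The permutation p, with libraries exchanged within groups and adjusted over 666 member pairs, was 0.00749 for rho and 0.0025 for r, and r was 0.843 without the 2 farthest libraries. Ccl6 and Ccl9, related chemokines that myeloid cells express, had the highest rho of all pairs (0.942, r 0.961, r 0.946 without 2 libraries; permutation adjusted p = 0.00222 and 0.00133). The interleukins Il18 and Il33 were next, with rho 0.913, r 0.936 and r 0.915 without 2 libraries (permutation adjusted p = 0.00333 and 0.00133). Of the 666 pairs 20 had an adjusted permutation p of rho under 0.05. All pairs share each library's tissue composition and depth, whose part was not tested.

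Over all 24 libraries, centred in the same way and given as a description, the members most like Il34 were Selp (rho 0.682) and Cxcl12 (0.387). Il34 and Selp were both the lowest of their group in the Cd79a-rich ZT3_RUN_4 and ZT15_SED_5. Those most like Il15 were Il16 (0.698) and Il33 (0.556). Over the 21 libraries without high Cd79a, rho of Il15 with Il16 was 0.6325 (permutation adjusted p = 0.0696). Vcam1 was most like Ccl5 (0.856) and Cxcl16 (0.817), which were high in the same Cd79a-rich libraries. Nfkbia was most like Tnfaip3 (0.648), and both were the highest of their group in ZT3_RUN_4 and ZT15_SED_5.

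Ccl8 reached 145 in ZT3_RUN_2, against at most 37.4 in the other ZT3 RUN libraries. Its ZT15 RUN values ran from 4.87 to 37.2, and it did not pass between the exercised groups (−1.17 ± 0.49, limma adjusted p = 0.179). Ccl6 had the highest level of the CC list, with 155 ± 47.6 and 181 ± 82.3 at ZT3 (SED and RUN) and 107 ± 65.1 and 145 ± 81.5 at ZT15. Ccl5, made by T and NK cells, behaved apart: 65.4 in ZT3_RUN_4 and 54.2 in ZT15_SED_5 stood against 1.70 to 5.67 in every ZT3 or ZT15 RUN library other than ZT3_RUN_4 and in ZT3 SED. Its interaction was −1.83 ± 0.96 with limma (adjusted p = 0.583) and −4.62 with DESeq2, which called it (adjusted p = 0.0132). Without the Cd79a-rich libraries the Ccl5 interaction was −0.08 with limma, and with a lymphocyte score as covariate −0.02. Ccl3, Ccl4 and Ccl11 had changes between −0.38 and 0.23 in all 5 comparisons other than the interaction, where Ccl11 was at 0.43, and none passed.

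**Figure D3:**
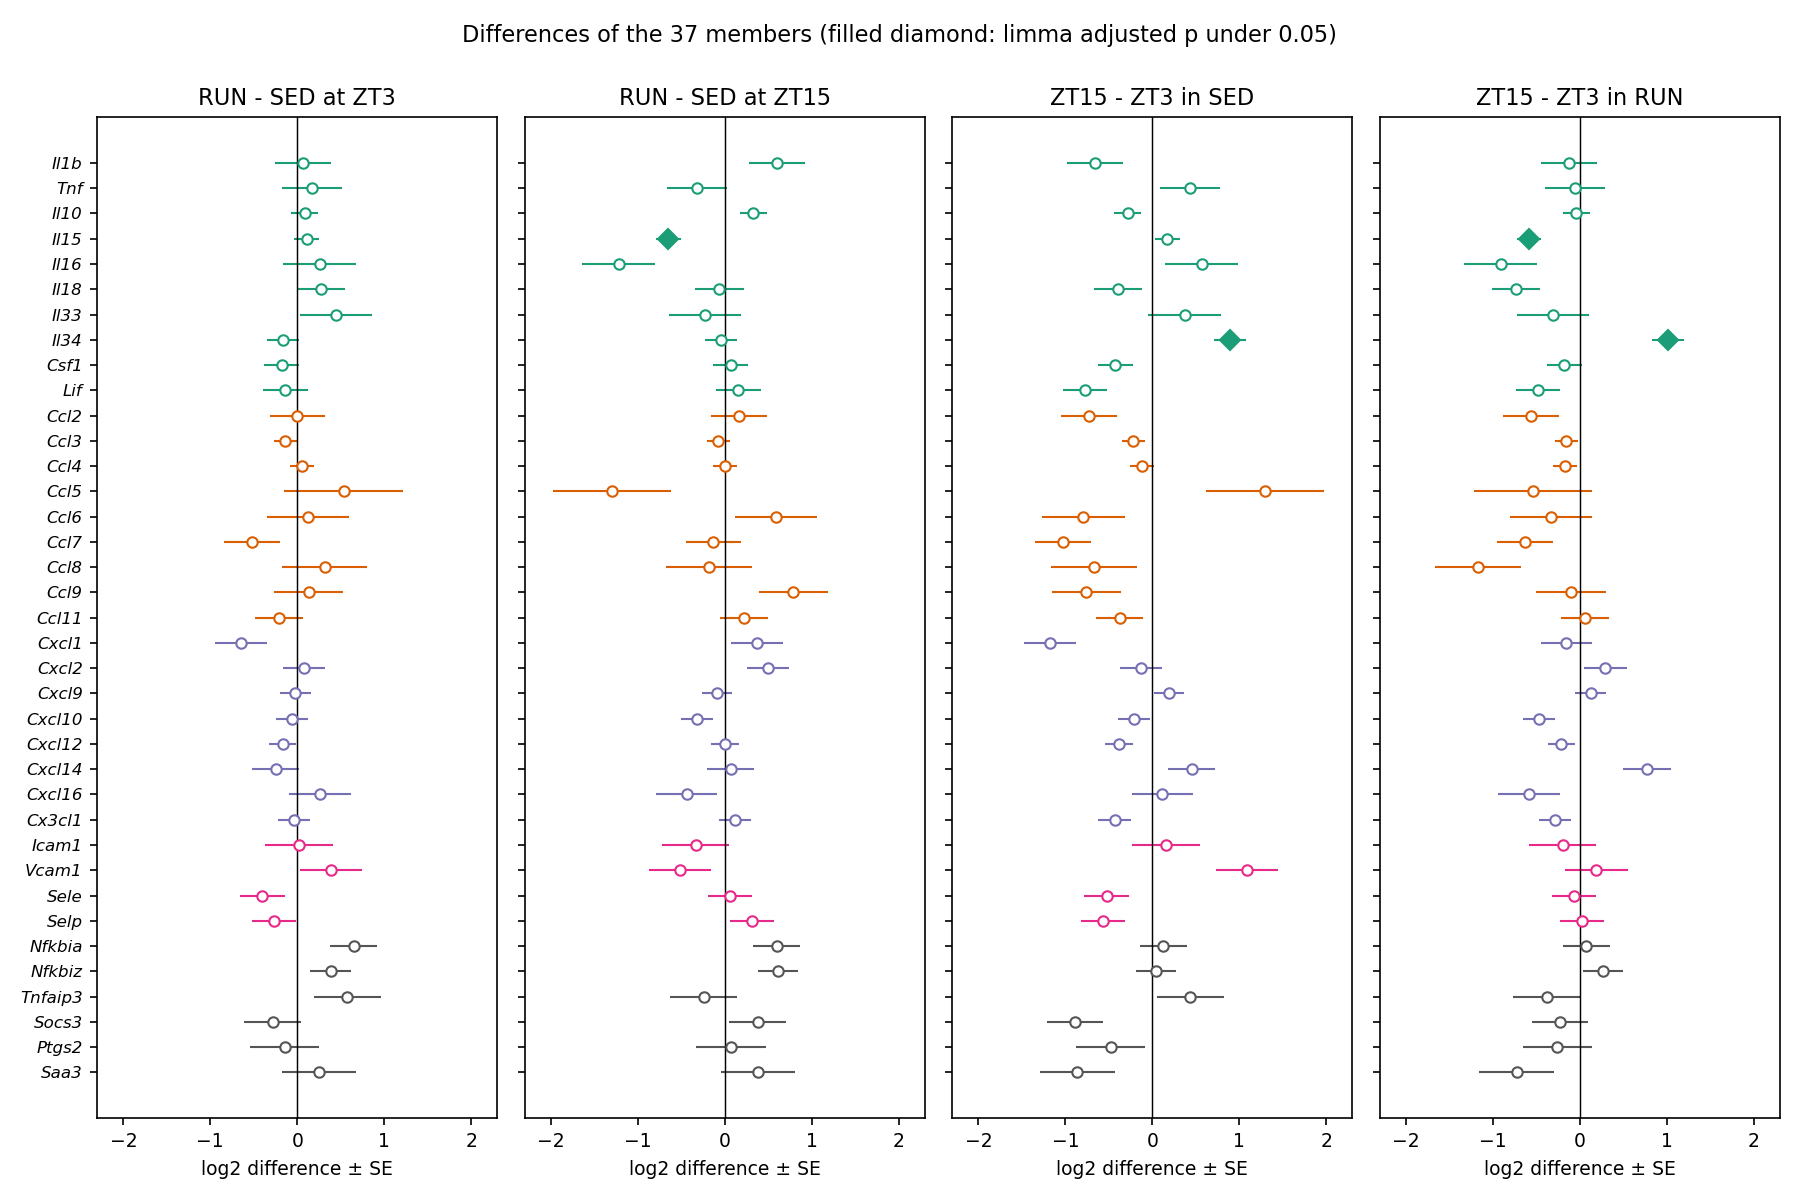
Change of each of 37 members in 4 comparisons, as a difference of mean log2(signal + 1) ± SE, coloured by role, with a filled diamond where limma's adjusted p was under 0.05. Il34 stands to the right in both time comparisons, and most CC chemokines lie left of 0 there.

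Among the CXC and CX3C chemokines, Cxcl1 had lower values at ZT15 than at ZT3 in sedentary mice and narrowly missed the threshold. CXCL1 draws neutrophils through CXCR2, and its promoter with a pair of kappa B-like runs is printed above. ZT3 SED values were 0.924, 2.33 and 9.20 (lowest, median, highest) and ZT15 SED values 0.340, 0.645 and 0.922. The groups did not overlap, though 0.922 and 0.924 nearly met, and non-overlap in either direction held for 2.51% of all genes here. Cxcl1 differed by −1.17 ± 0.30 (limma adjusted p = 0.0523).

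Cxcl1 passed with edgeR (−2.42, adjusted p = 0.00911), DESeq2 (−2.43, adjusted p = 4.98e-05) and a pseudocount of 0.1 (−1.83, limma adjusted p = 0.0339). It also passed in limma with the block of title numbers 1 to 8, 9 to 16 and 17 to 24 (0.0429) and with a muscle score (0.0368). It did not pass without ZT3_SED_2 (0.133) or without the Cd79a-rich libraries (−1.17, 0.108). Nor did it in a fit of only these groups (0.141) or with a macrophage score (0.1185). After exercise at ZT3 it differed by −0.65 ± 0.30, from 3.51 ± 3.24 to 1.39 ± 0.448 (limma adjusted p = 0.989, unadjusted 0.0392). In exercised mice it had 1.39 ± 0.448 at ZT3 and 1.17 ± 0.498 at ZT15 (−0.15 ± 0.30, limma adjusted p = 0.801). The interaction was 1.02 ± 0.42 and did not pass (limma adjusted p = 0.583), so the time difference in SED and in RUN was not shown to differ. Cxcl2, its close relative, was at most 0.867 in ZT15 RUN except for 3.42 in ZT15_RUN_5.

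Cxcl14, a chemokine of epithelium and fat, had 7.54, 13.8 and 36.9 in ZT3 RUN and 15.3, 27.6 and 32.8 in ZT15 RUN. The highest of all, 36.9, was at ZT3, in ZT3_RUN_6. Cxcl14 differed by 0.77 ± 0.27 (limma adjusted p = 0.107), by 1.02 without ZT3_RUN_6 (0.0155) and by 0.59 without the Cd79a-rich libraries (0.198). The interferon-inducible Cxcl9 and Cxcl10 had group means of 30.6 to 34.9 and 11.2 to 16.9 and did not pass. Cxcl12 ran from a mean of 132 ± 14.3 in ZT15 SED to 173 ± 26.3 in ZT3 SED and did not pass (−0.38 ± 0.16, limma adjusted p = 0.297). Cx3cl1, a membrane-tethered ligand of CX3CR1, went from 3.56 ± 0.775 to 2.42 ± 0.84 between the same groups (−0.43 ± 0.18, limma adjusted p = 0.322). Cxcl16, a ligand of CXCR6, had group means from 6.99 to 14.2, the higher ones resting on 43.7 in ZT3_RUN_4 and 27.5 in ZT15_SED_5.

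Of the adhesion molecules, Vcam1, which binds leukocyte integrin, differed between times in some fits, among them that without the Cd79a-rich libraries. With all libraries, ZT3 SED values were 21.6, 23.4 and 26.5, and ZT15 SED values 34.3, 37.1 and 129. The groups did not overlap, but the highest values, 129 and 88.6, stood in the Cd79a-rich ZT15_SED_5 and ZT15_SED_3, and the change did not pass (1.09 ± 0.36, limma adjusted p = 0.157). On all libraries DESeq2 did call it (1.34, adjusted p = 0.029), as did limma with a lymphocyte score as covariate (0.52, adjusted p = 0.00589). Without the Cd79a-rich libraries Vcam1 (ENSMUSG00000027962) went from 23.8 ± 2.19 (n = 6) to 35.9 ± 1.55 (n = 4), a change of 0.58 ± 0.11 (limma adjusted p = 0.00638).

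The exercised groups gave a value of the same size. Without ZT3_RUN_4, where Vcam1 was at 126, it went from 23.8 ± 4.05 (n = 5) to 36.1 ± 4.81 (n = 6), a change of 0.59 ± 0.10 (limma adjusted p = 0.00224). With all 24 libraries the Vcam1 change was 0.19 ± 0.36 (0.790), and edgeR gave −0.18 (adjusted p = 0.818). In the reduced fit exercise left Vcam1 at −0.01 ± 0.10 at ZT3 and 0.00 ± 0.11 at ZT15. In that fit 1.57% of all genes passed between sedentary groups (0.979% higher) and 4.1% between exercised groups (2.37% higher). The libraries were left out for their Cd79a, and in all 3 of them Vcam1 stood above every library of its group without high Cd79a.

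The selectins, by which endothelium first slows leukocytes, did not pass. Selp had 5.45, 5.95 and 6.28 in ZT3 SED and 2.66, 3.43 and 5.40 in ZT15 SED. The groups did not overlap (−0.56 ± 0.25, limma adjusted p = 0.360). In ZT15 RUN, ZT15_RUN_5 held 12.9 for Selp and 5.83 for Sele, against at most 5.68 and 1.05 in the others. That library also held the highest Icam1 of its group, 26.4 against at most 13.1. Icam1, an integrin ligand like Vcam1, had group medians from 11.7 to 15.7 and did not pass. ZT15_RUN_5, the library of least depth (18.5 M reads), was the highest of its group for 14 of 37 members and the lowest for 8. By the same count ZT3_RUN_4 was the highest of its group for 16 members and ZT3_SED_2 for 13. These shares were not computed over all genes.

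**Figure D4:**
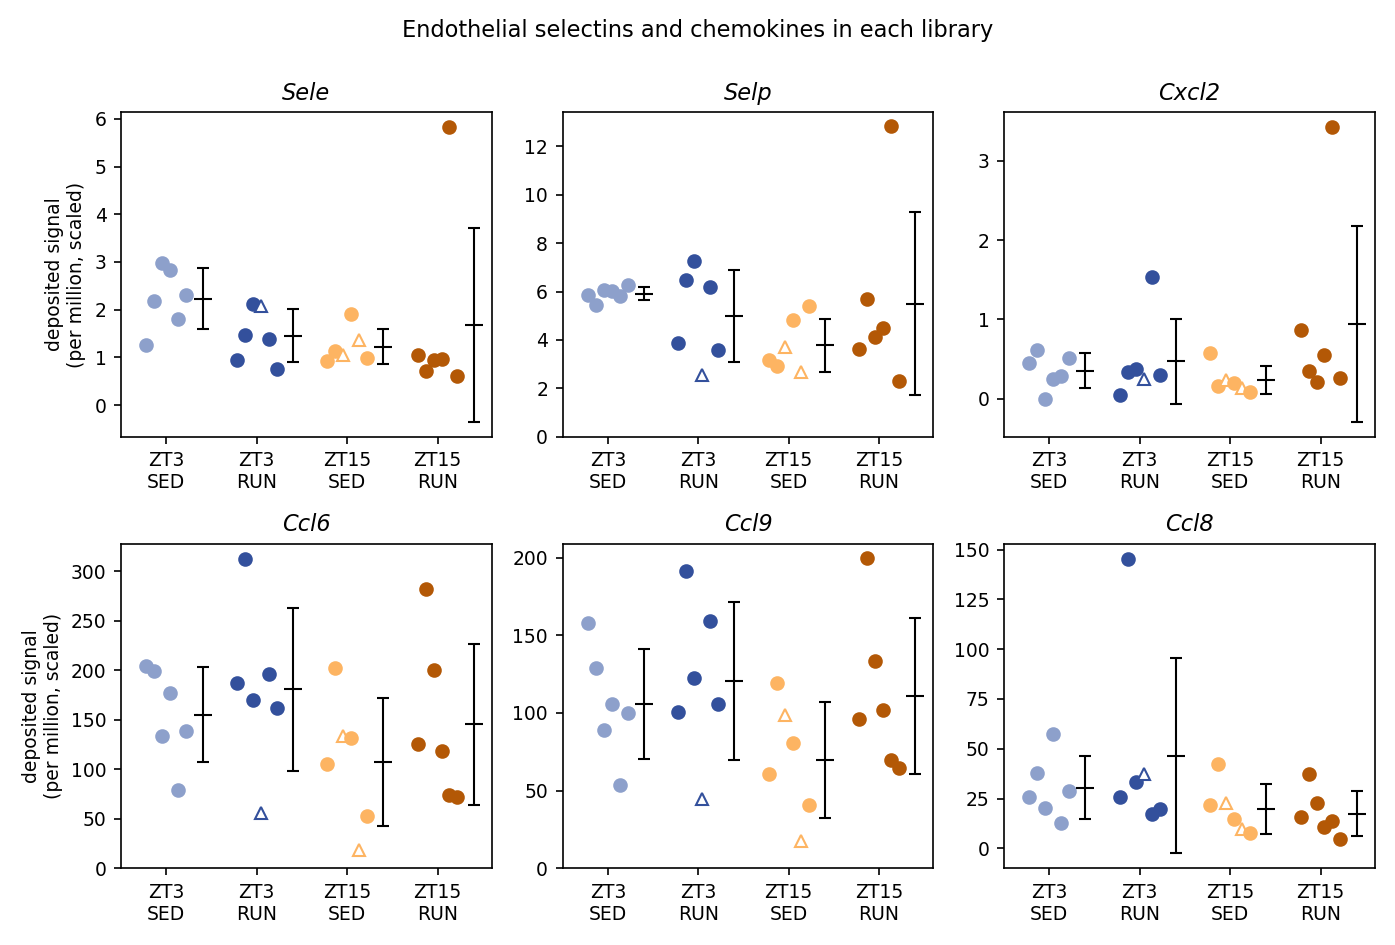
Signal by group and library for the selectins Sele and Selp and the chemokines Cxcl2, Ccl6, Ccl9 and Ccl8, mean ± SD in black, with open triangles for the 3 libraries with Cd79a above 5. Sele in ZT15_RUN_5 stands at 5.83 above all other ZT15 RUN libraries.

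The NF-kB inhibitors Nfkbia and Nfkbiz had higher means after exercise at both times, and neither passed. Nfkbia values were 43.4, 53.2 and 96.6 in ZT3 SED and 37.0, 101 and 131 in ZT3 RUN, and 45.9, 50.2 and 105 in ZT15 SED and 72.7, 88.6 and 130 in ZT15 RUN. The groups overlapped at each time. Nfkbia differed by 0.65 ± 0.27 at ZT3 (limma adjusted p = 0.989, unadjusted 0.0250) and by 0.60 ± 0.27 at ZT15 (limma adjusted p = 0.358, unadjusted 0.0371). Without the Cd79a-rich libraries the Nfkbia change was 0.54 at ZT3 (1.00) and 0.94 at ZT15 (0.110).

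Nfkbiz, an atypical inhibitor that also activates a subset of targets, had 13.9, 19.3 and 32.3 in ZT15 SED and 21.1, 31.6 and 47.7 in ZT15 RUN. All 6 RUN libraries lay above the SED mean, and the ranges overlapped (0.61 ± 0.23, limma adjusted p = 0.255). At ZT3 Nfkbiz went from 20.3 ± 5.34 in SED to 27.5 ± 10.2 in RUN (0.38 ± 0.23, limma adjusted p = 0.989). Without the Cd79a-rich libraries its change was 0.24 at ZT3 and 0.75 at ZT15 (limma adjusted p = 0.159 at ZT15). Of the 6 genes in this role, with all libraries, 5 were above 0 at ZT15 (median 0.38) and 4 at ZT3 (0.32). This stood beside 50.7% and 51.8% of all genes, and 0 of the 6 passed at either time. Socs3, the feedback inhibitor of IL-6 signalling, had 12.7 ± 5.75 in ZT3 SED and 6.15 ± 2.01 in ZT15 SED (−0.89 ± 0.33, limma adjusted p = 0.221). Tnfaip3, which removes ubiquitin chains from the pathway, reached 93.9 in ZT3_RUN_4 and 73.1 in ZT15_SED_5 and had a median of 16.2 to 20.5 in every group. The Tnfaip3 mean went from 17.1 in SED to 31.8 in RUN at ZT3, and from 28.3 to 19.3 at ZT15. Without the Cd79a-rich libraries it went from 17.1 to 19.4 at ZT3 and from 15.1 to 19.3 at ZT15. Ptgs2, the inducible prostaglandin synthase, had group means from 2.32 to 3.68 with SDs from 1.55 to 2.26 and did not pass. Saa3, an acute phase protein made in fat, had group means from 0.904 to 4.37, the highest resting on 14.5 in ZT3_RUN_2.

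Counting all 37 members, exercise at ZT3 called 0 with limma, edgeR and DESeq2, where 0% of all genes passed. At an unadjusted p under 0.05 there were 1 higher (Nfkbia) and 1 lower (Cxcl1), beside 1.15% and 1.12% of genes. Exercise at ZT15 called 1 lower (Il15) and 0 higher, beside 0.16% and 0.481% of genes. Unadjusted, it had 3 higher (Nfkbia, Nfkbiz and Il10) and 2 lower (Il15 and Il16), beside 6.65% and 6.01% of genes. The interaction called 0 with limma and edgeR and 2 with DESeq2 (Il15 and Ccl5), while limma called 0% of genes. Unadjusted, it had 1 higher (Cxcl1) and 2 lower (Il15 and Il16), beside 3.83% and 4.02% of genes.

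ZT15 against ZT3 in sedentary mice called 1 of 37 members, Il34, beside 1.18% of all genes in either direction and 0.616% higher. Unadjusted, 2 members were higher (Il34 and Vcam1) and 9 lower (Csf1, Lif, Ccl2, Ccl7, Cxcl1, Cxcl12, Cx3cl1, Selp and Socs3), or 24.3% of the members lower, beside 5.66% and 6.46% of genes. In exercised mice it called Il34 higher and Il15 lower, beside 4.19% of all genes in either direction, 2.56% higher and 1.63% lower. Unadjusted, 2 were higher (Il34 and Cxcl14) and 5 lower (Il15, Il16, Il18, Ccl8 and Cxcl10), beside 10.7% and 10% of genes. Over all 37 members 14 had a change above 0 between sedentary groups (median −0.28) and 9 between exercised groups (median −0.20), beside 54.0% and 48.9% of all genes. Without the Cd79a-rich libraries 9 members were above 0 between sedentary groups (median −0.33) and 12 between exercised groups (median −0.14).

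Groups of 6 without any overlap were few. Between sedentary groups they were those of Vcam1 (higher at ZT15), Selp and Cxcl1 (lower), beside 2.51% of all genes in either direction, 1.2% higher and 1.31% lower. Between exercised groups they were those of Il34 (higher) and Il15 (lower), beside 2.27% in either direction, 1.5% higher and 0.764% lower. No member's groups were apart after exercise at ZT3 (0.0739% of genes in either direction, 0.0493% higher and 0.0246% lower) or at ZT15 (1.75%, 1% and 0.745%). These comparisons share groups of libraries, as exercise at ZT15 and ZT15 against ZT3 in exercised mice share ZT15 RUN.

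**Figure D5:**
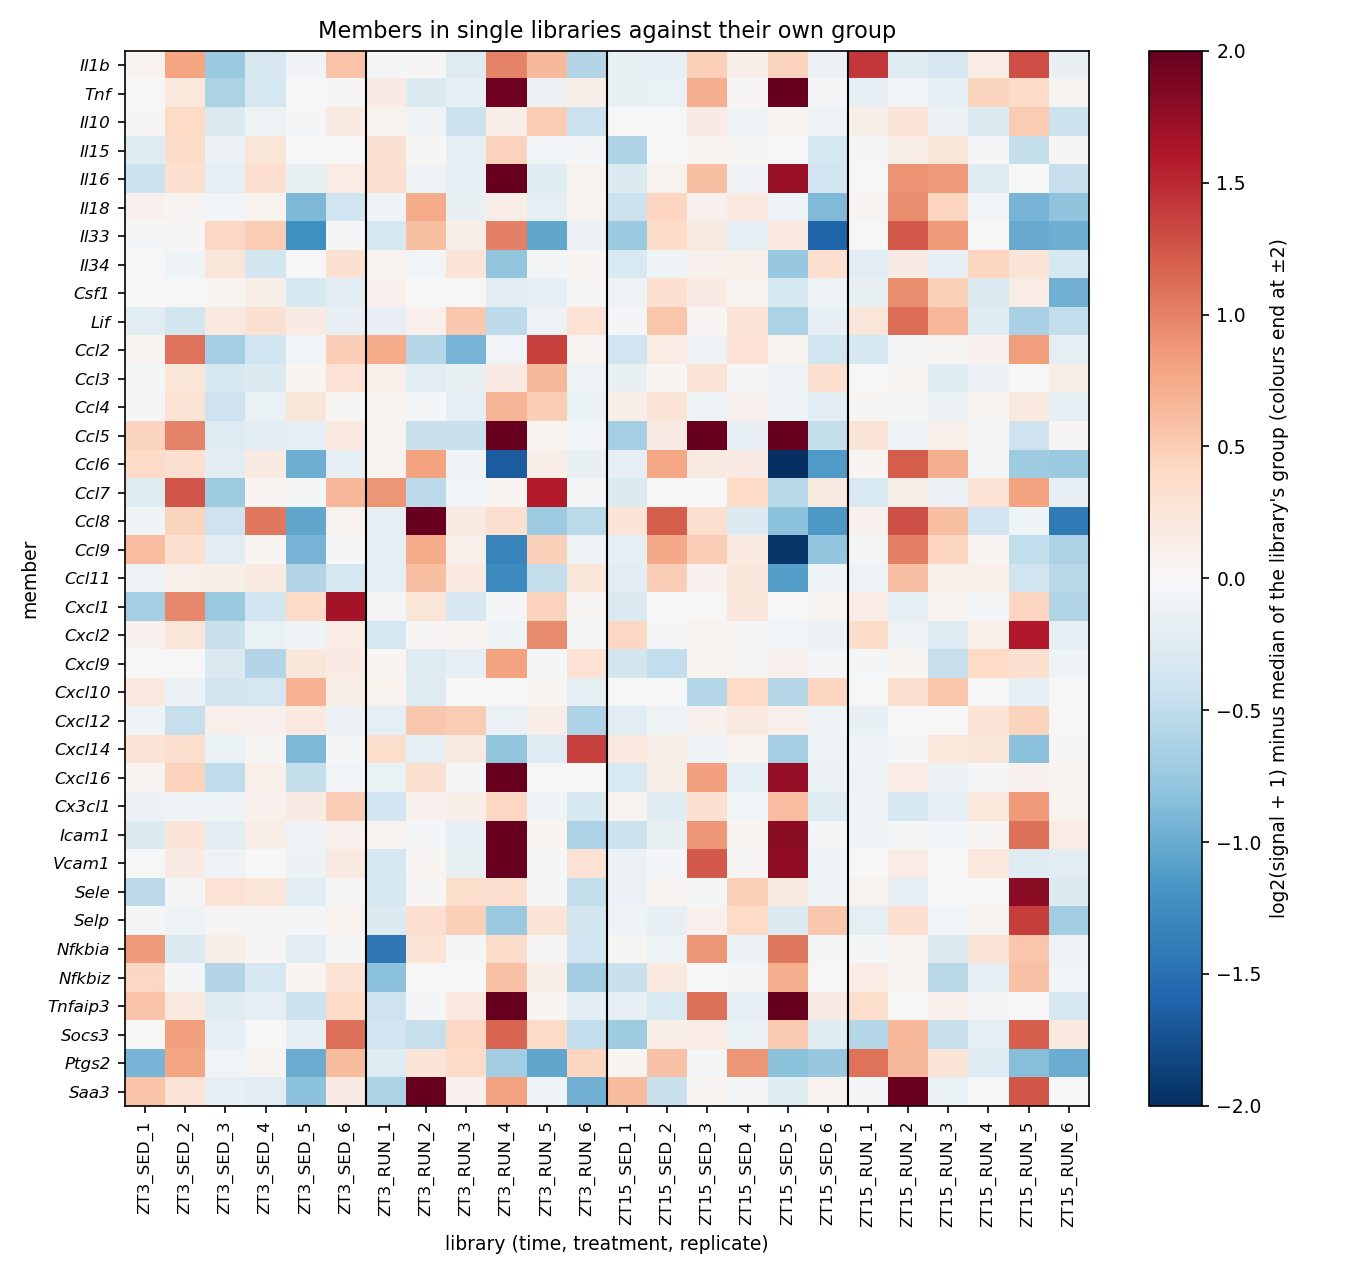
Difference of log2(signal + 1) between each library and the median of its own group, for 37 members (rows) by 24 libraries (columns), with colours limited at 2. ZT3_RUN_4, ZT15_SED_5 and ZT15_RUN_5 stand out as columns.

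The 3 Cd79a-rich libraries shared a set of high members. In all 3, 12 members lay above every library of their group without high Cd79a. They were Il1b, Tnf, Il16, Ccl5, Cxcl9, Cxcl16, Cx3cl1, Icam1, Vcam1, Nfkbia, Tnfaip3 and Socs3. The members below in all 3 numbered 0, but Il34, Csf1, Lif, Ccl6, Ccl9, Ccl11, Cxcl10, Cxcl14 and Selp were below in 2 of the 3. The share of all genes that lay above or below in this way was not computed, so neither set is shown to be particular to the members. Ccl5 stood 25.6 times, 7.52 times and 15.9 times above the median of the libraries of its group without high Cd79a in ZT3_RUN_4, ZT15_SED_3 and ZT15_SED_5, and Tnf 14.0, 3.11 and 10.6 times. Ccl6 was low in ZT3_RUN_4 (55.9) and in ZT15_SED_5 (18.8), against group medians of 179 and 118.

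Few genes on the lists of related pathways, which hold receptors and other targets as well as regulators, passed. No gene of the lists for NF-kB subunits and kinases (16), other NF-kB targets (23 of 27 listed), cytokine receptors (19), chemokine receptors (13) or STAT3 signalling (12 of 13) passed in any of the 5 comparisons. Of 16 Toll-like receptors and adaptors 3 passed, all between exercised groups, where 4.19% of all genes passed and 15 of 17 macrophage and dendritic cell markers were below 0 (median −0.48), whose part was not tested. Tlr7, which senses single-stranded RNA, fell by 0.94 ± 0.24, from 28.1 ± 7.63 to 15.0 ± 7.11 (limma adjusted p = 0.0297). Myd88, the adaptor of most of these receptors, fell by 0.32 ± 0.07, from 23.8 ± 2.10 to 18.8 ± 2.04 (0.0159). Cd14, the lipopolysaccharide co-receptor, rose by 1.12 ± 0.31, from 22.0 ± 11.7 to 45.8 ± 13.1 (0.0452).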

How the data were processed

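RNA sequencing libraries, 24 in 4 groups of 6, were compared. The authors deposited normalised signal, 1 column per library, from ribosome-depleted total RNA and a stranded kit per the labels' protocols. Tools listed per the submitters' processing notes are STAR, featureCounts, Subread 1.6.2 and limma 3.48.3, whose roles are not stated there. Build, annotation, strand setting and the filter on low values: not given in the sources used here. Reads of overlapping or near-identical genes may thus be shared. In each column 100% of values were whole multiples of 1 read within 0.01, so whole reads were recovered for edgeR and DESeq2.

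The members, lists and rules were chosen with earlier results of these data known. Members past the threshold, and the 4 of smallest p in each comparison, are given in full. A model of group means was fitted to log2(value + 1) over all 24 libraries with limma 3.58.1 in R 4.3.3 (eBayes with a trend), with Benjamini-Hochberg adjustment over 16233 genes at 0.05. The log2 scale understates change of low genes. Exon lengths are from GENCODE M21 and promoters from RefSeq GRCm38.p6. On recovered reads edgeR 4.0.16 (quasi-likelihood) called 0 genes for exercise at ZT3, 121 at ZT15, 0 for the interaction, 192 between sedentary times and 744 between exercised times. DESeq2 1.42.0 called 0, 541, 239, 544 and 1575. Over 60 within-group pairs of libraries the smallest chi-square per degree of freedom was 23.3, so none was a duplicate within sampling noise. The fit was tested on simulated reads in which genes varied independently of each other. That test does not cover libraries that differ in tissue, and its outcome is not given here. Likeness between members was computed without the Cd79a-rich libraries, a choice made after seeing the data, with 100000 permutations, and over all 24 as a description. Alternatives were other scalings, pseudocount 0.1, a low-value filter (25%), no trend, robust moderation, edgeR, DESeq2, blocks of title numbers, cell type covariates, a threshold of 0.1, and leaving libraries out. Title numbers carry no stated pairing.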

Additional observations from a re-analysis of the deposited data

Results flagged for a closer look

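Within a group of 6, the highest or lowest library stood apart from the nearest other by more than Dixon's 95% limit for the gap relative to the range (log2 scale) in 20 of 148 tests, 1 for each of 37 members in 4 groups. Chance flags about 1 in 20 groups. Of the 20, 9 were in the Cd79a-rich libraries and 5 in ZT15_RUN_5.

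In ZT3_RUN_4, which has the highest Cd79a, the high values were Tnf at 4.59 (others 0.195 to 0.621), Il16 at 115.9 (14.3 to 21.4), Ccl5 at 65.4 (1.70 to 2.81), Cxcl16 at 43.7 (7.24 to 10.3), Icam1 at 68.0 (7.94 to 13.5), Vcam1 at 126 (18.8 to 29.8) and Tnfaip3 at 93.9 (15.1 to 23.6). The low value there was Il34 at 5.26 (9.42 to 11.9). In ZT15_SED_5, Cxcl14 was low at 16.2 (24.3 to 30.4).

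In ZT15_RUN_5, Ccl2 was at 4.14 (1.26 to 2.05), Cxcl2 at 3.42 (0.208 to 0.867), Icam1 at 26.4 (11.2 to 13.1) and Sele at 5.83 (0.614 to 1.05), while Cxcl14 was low at 15.3 (26.1 to 32.8). In ZT3_RUN_2, Il18 was at 14.3 (6.98 to 9.06) and Ccl8 at 145 (17.4 to 37.4). Single values elsewhere were Il33 at 3.05 in ZT3_SED_5 (8.30 to 12.4), Cxcl2 at 1.54 in ZT3_RUN_5 (0.0414 to 0.371) and at 0.578 in ZT15_SED_1 (0.0893 to 0.235), and Nfkbia at 96.6 in ZT3_SED_1 (43.4 to 57.7).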

How the results depend on the processing

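No result recomputed here under all alternatives changed direction. Outside that set directions did change. Without the Cd79a-rich libraries, members above 0 went from 21 to 14 for exercise at ZT3 and from 21 to 24 at ZT15. Between sedentary times they went from 14 to 9, between exercised times from 9 to 12, and for the interaction from 22 to 25. The Vcam1 change between exercised times was 0.19 with limma and −0.18 with edgeR. For exercise at ZT15 the 1 member called became 0 with quantile normalization, only the groups of the contrast, neighbouring title numbers as a replicate block, the lymphocyte covariate and without the Cd79a-rich libraries, and also, chosen after seeing the data, without those and ZT15_RUN_5; leaving out 1 library gave 0 to 2. Between sedentary times 1 became 2 with pseudocount 0.1, edgeR, the block of title numbers 1 to 8, 9 to 16 and 17 to 24, the muscle covariate, a threshold of 0.1 and without the Cd79a-rich libraries, 3 with the lymphocyte covariate and with that added exclusion, and 4 with DESeq2; leaving out 1 library gave 1 to 3. Between exercised times 2 became 1 with only the groups of the contrast and with the macrophage covariate, 3 with DESeq2, the block of title numbers 1 to 8, 9 to 16 and 17 to 24, the lymphocyte covariate and without the Cd79a-rich libraries, and 1 to 3 without 1 library; the added exclusion gave 2, Il34 and Vcam1, and lost Il15. The interaction had 0, 2 with DESeq2, and 0 to 0 without 1 library; exercise at ZT3 had 0 throughout. The cause of these shifts was not tested. The replicate block of neighbouring title numbers, whose pairing has no stated source, changed only the Il15 call after exercise at ZT15 among the exercise and interaction calls, and could not be fitted for the time comparisons. Members at few reads are limited by depth.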
